A study of Mus musculus with 96 samples.

Results

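The enzymes of de novo purine synthesis were followed in single cells of EL4, a mouse T-lymphoma line (strain C57BL/6 in the labels, C57BL/6 N in the study's methods), with and without an shRNA against Ctcf, the gene of a DNA-binding protein of chromosome architecture. They comprised 10 genes of the 24057 in the table (Prps1, Ppat, Gart, Pfas, Paics, Adsl, Atic, Impdh1, Impdh2 and Gmps), taken by their symbols. The pathway was chosen by measured values of the same contrast, since Pfas and Gart were among the genes with the largest differences in both knockdown cultures. The knockdown values of the 10 genes are therefore given as a description, with no test. All 10 had log2(TPM + 1) above 1 in at least 2 cells and passed the filter on low values, which left 11980 genes.

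Cells labelled wild type (WT) had been infected with virus carrying an shRNA against luciferase (cultures shLuc #1 and shLuc #2), and cells labelled CTCF knockdown (CTCF-KD) with virus carrying an shRNA against Ctcf (cultures shCTCF #1 and shCTCF #2). Both viruses also encoded GFP, and infected cells were sorted by it, so infection, GFP and a hairpin were shared by all cultures. Cultures with the number 1 formed experiment 1 and those with the number 2 experiment 2. Which Ctcf hairpin each culture carried was not settled by the sources used here, nor was the promoter that drives the hairpins. From each culture, 24 cells of the highest quality on its own microfluidic circuit were sequenced, so within an experiment a difference between conditions cannot be told apart from one between cultures or circuits. The culture was taken as the replicate (2 per condition), since cells of a culture are not independent.

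The targeted gene was checked first. Mean Ctcf was 60.3 TPM in shLuc #1, 37.1 TPM in shLuc #2, 15.96 TPM in shCTCF #1 and 44.9 TPM in the culture labelled shCTCF #2. Ctcf was thus lower than its control in experiment 1 and above its control in experiment 2, against the label. The difference in experiment 2 was small beside the SD over cells (45.5 TPM in shLuc #2 and 50.0 TPM in the culture labelled shCTCF #2). In experiment 1 that SD was 76.8 TPM in shLuc #1 and 27.4 TPM in shCTCF #1. It measures the spread of cells and is not the error of a culture mean. For both knockdowns the study describes lower Ctcf mRNA by RT-qPCR and lower protein by Western blot. It also states that populations with efficient knockdown were the ones sequenced. Each direction given below for the culture labelled shCTCF #2 rests on its label and those checks, since its sequenced cells did not show lower Ctcf. For each enzyme, values for experiment 1 alone, which do not use that culture, can be read from the values of the 4 cultures. No pair of cells had identical values. One cell of shLuc #2 had 81 genes and no read of any of the 10 enzymes and was left out, as cells under 3000 genes were dropped. The lowest cell kept had 3150 genes, and 95 cells remained (24, 23, 24 and 24 in shLuc #1, shLuc #2, shCTCF #1 and the culture labelled shCTCF #2). Reads recovered from the TPM values ranged from 41591 to 405404 per cell, with culture medians of 247586, 230477, 234260 and 131098 in that order. CTCF-KD cells had more genes with reads, with medians of 4771, 4635, 6172.5 and 5656 genes in the same order. After thinning every cell to 80000 reads, which left out 1 cell of the culture labelled shCTCF #2, the medians were 4170.5, 3934, 5221.5 and 5238 genes. The part of this difference in the values of the enzymes was not tested. Of 11 T-cell markers in the table, 10 were above 1 TPM in every culture, with a summed level from 7030 to 9063 TPM. The 8 B-cell markers summed to between 2.49 and 11.3 TPM, with Cd79b, Ms4a1, Pax5 and Ebf1 listed at 0 in all cultures. Myeloid markers (8 in the table) summed to 31.3 to 52.1 TPM with Lyz2, Adgre1, Cd14, Mpo and Cebpa at 0, and the 8 erythroid and stromal markers to 13.9 to 40.8 TPM with Hbb-bs, Epcam, Krt8 and Krt18 at 0.

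De novo purine synthesis builds the purine ring stepwise on phosphoribosyl pyrophosphate (PRPP), using glutamine, glycine, aspartate, bicarbonate and formyl groups carried by folate, and ends at inosine monophosphate (IMP). IMP is then turned into AMP or GMP. Proliferating lymphocytes depend on this route, which is why inhibitors of IMP dehydrogenase are used to suppress them. In vertebrates several of the enzymes carry more than one activity on a single protein, so few genes cover the whole route.

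The genes lie on separate chromosomes, except for Ppat and Paics, which lie head to head on chromosome 5 of GRCm38 (Ppat from 76913249 to 76951578 on the minus strand, Paics from 76951307 to 76967509 on the plus strand). Their RefSeq start sites are 276 bases apart and each gene reads through the start of the other, so that their annotated exons share 272 bases on opposite strands. The strand setting of the counting was not given in the sources used here, and reads from that stretch cannot be assigned to one gene. RefSeq promoter windows (GRCm38.p6, 250 bases before to 50 after a start site, 300 in all) were found for 9 of the 10 genes. The E-box CACGTG, which reads the same on both strands and is the binding site of Myc and related factors, was in the windows of Atic, Impdh2 and Paics, and in 7.15% of the 32851 promoter windows. These 3 stretches are shown to compare the flanks of the E-box, which is in capitals (Atic at chr1:71557139-71557164, Impdh2 at chr9:108560316-108560341 and Paics at chr5:76951089-76951114, all on the plus strand).
Atic: acctcggggtCACGTGgggtcgacac
Impdh2: gctcgataagCACGTGgttacccagc
Paics: cctcggaaagCACGTGgagggacctg
The match began 7 bases before the start site in Atic, 110 bases before it in Impdh2 and 203 bases before it in Paics. The Paics match lies 474 bases downstream of the Ppat start site, within the bounds of the annotated Ppat gene. No match was in the windows of Prps1, Ppat, Gart, Adsl, Gmps or Impdh1. The stretch before the start site of Gart is shown because Gart had the largest knockdown difference of the 10 genes (chr16:91646973-91647222, minus strand, written 5′ to 3′), with a GC box (GGGCGG) and a CCAAT box (CCAAT) in capitals, each searched on both strands.
Gart: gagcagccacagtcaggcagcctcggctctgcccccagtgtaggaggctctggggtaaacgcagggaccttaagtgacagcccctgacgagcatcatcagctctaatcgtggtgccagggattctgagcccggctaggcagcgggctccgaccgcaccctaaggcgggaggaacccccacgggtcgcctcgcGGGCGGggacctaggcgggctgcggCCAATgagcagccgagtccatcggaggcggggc
The GC box began 58 bases and the CCAAT box 33 bases before the start site. A GC box was found in 35.66% and a CCAAT box in 37.41% of all windows, and GC boxes were in every window found for the 10 genes. A match describes letters only.

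Early steps. Ppat, Gart and Pfas carry out the first committed step and the next ring-building steps. Ppat and Gart had reads in a minority of WT cells and in nearly all CTCF-KD cells, and Pfas was read in most WT cells at low levels and in every CTCF-KD cell. In CTCF-KD over WT, log2(mean TPM + 1) was 2.16 higher for Ppat (standard error 0.62), 3.61 higher for Gart (standard error 0.70) and 2.60 higher for Pfas (standard error 0.57, 2 cultures per condition for each). This scale, used for the folds of single genes throughout, understates the difference of genes with low values. On it, Gart differed 6.22-fold in experiment 1 and 23.96-fold in experiment 2, Pfas 7.42-fold and 4.94-fold, and Ppat 4.33-fold and 4.63-fold. Without the culture labelled shCTCF #2 the log2 differences were 1.88 for Ppat, 3.06 for Gart and 2.30 for Pfas.

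Prps1, which makes the PRPP the pathway starts from, had a mean of 61.7 TPM in shLuc #1, 124 TPM in shLuc #2, 91.4 TPM in shCTCF #1 and 158 TPM in the culture labelled shCTCF #2. The CTCF-KD culture was higher within each experiment, but shLuc #2 was above shCTCF #1, so the conditions overlapped. The log2 difference was 0.45 (standard error 0.50), with 0.56 in experiment 1 and 0.34 in experiment 2, and it was -0.05 without shLuc #1. Cells with Prps1 reads numbered 10 of 24, 15 of 23, 23 of 24 and 21 of 24 in the same order of cultures. Prps1 was thus read in more CTCF-KD cells, at a median of 101 and 164 TPM in the WT cells that had reads and of 76.5 and 174 TPM in the CTCF-KD cells that had them. Prps1l3, a Prps1-like gene, was counted at 17.3 to 65.2 TPM over the cultures and Prps1l1 at 0. Only uniquely mapped reads were counted, so reads that match Prps1 and a near-identical copy equally well may be missing from both.

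Ppat, the amidotransferase that commits PRPP to purines, had a mean of 8.95 TPM in shLuc #1, 12.8 TPM in shLuc #2, 42.1 TPM in shCTCF #1 and 62.9 TPM in the culture labelled shCTCF #2. The CTCF-KD cultures did not overlap with the WT cultures. Reads were found in 8 of 24, 4 of 23, 23 of 24 and 22 of 24 cells in the same order. In shLuc #2 a single cell held 85.1% of the Ppat reads, and in shLuc #1 a single cell held 56.2%. With the highest cell of each culture left out, the WT means were 4.37 and 2.87 TPM, the CTCF-KD means 38.4 and 53.2 TPM, and the log2 difference 3.34.

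Gart, a protein with 3 enzyme activities of the early route, had a mean of 8.55 TPM in shLuc #1, 4.34 TPM in shLuc #2, 58.4 TPM in shCTCF #1 and 127 TPM in the culture labelled shCTCF #2. It had reads in 8 of 24 and 4 of 23 WT cells, and in 21 of 24 and 24 of 24 CTCF-KD cells. The highest WT cell reached 91.9 TPM and the highest CTCF-KD cell 429 TPM. Among the cells with reads, the median was 17.99 and 16.97 TPM for WT and 30.7 and 101 TPM for CTCF-KD, so both the share of cells and the level in them were higher. As RPM (recovered reads of the gene scaled to a total of 1e6 per culture), with 95% Poisson limits, which cover counting error alone, Gart was at 13.2 (10.5 to 16.4), 5.10 (3.39 to 7.37), 103 (94.7 to 112) and 219.7 (204 to 236) in the same order of cultures. An antisense gene, Gm15964, shares 1014 exon bases with Gart and had no row in the table.

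Pfas, the glutamine-using step that lies between activities of Gart, had a mean of 13.2 TPM in shLuc #1, 31.3 TPM in shLuc #2, 104 TPM in shCTCF #1 and 158 TPM in the culture labelled shCTCF #2. Unlike Ppat and Gart it had reads in most WT cells (19 of 24 and 17 of 23), and it had reads in all 48 CTCF-KD cells. The WT cells ran from 0 to 54.9 TPM with a median of 5.48 in shLuc #1 and from 0 to 107 TPM with a median of 16.6 in shLuc #2. The CTCF-KD cells ran from 39.4 to 238 TPM with a median of 87.2 in shCTCF #1 and from 18.9 to 333 TPM with a median of 164 in the culture labelled shCTCF #2. The lowest shCTCF #1 cell was thus above the median of either WT culture.

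**Figure D1:**
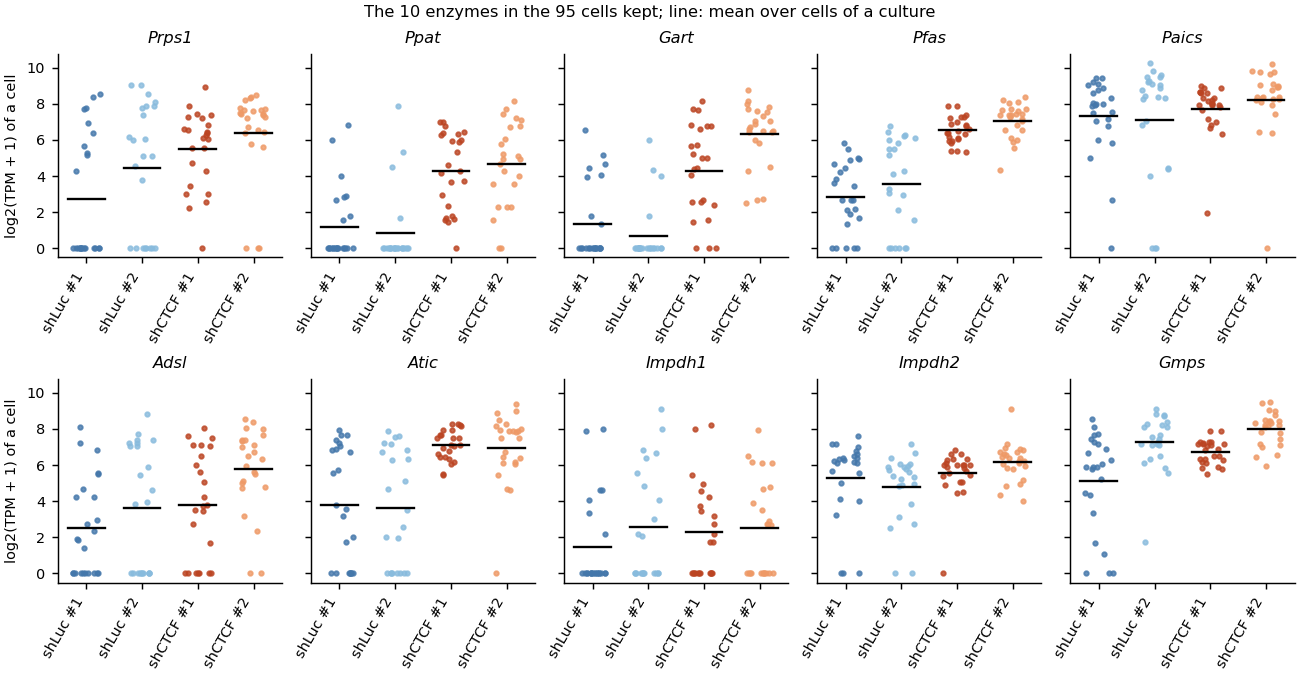
Each point is a cell (95 in all), the vertical axis is log2(TPM + 1) of the gene named above the panel, the horizontal axis gives the culture, and the line is the mean over the cells of the culture. Ppat and Gart were at 0 in most WT cells, Pfas cells of the CTCF-KD cultures lay together at 18.9 TPM or more, and Paics and Gmps had reads in most cells of every culture.

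Middle and late steps to IMP. In mean TPM, Atic was the only later enzyme whose conditions did not overlap, with CTCF-KD higher. Paics, the most abundant of the 10, lay between 271 and 447 TPM with no order by condition. Averaged over cells, log2(TPM + 1) did not overlap for Paics either (7.34 and 7.09 in WT, 7.74 and 8.23 in CTCF-KD). The same held for Adsl (2.48 and 3.64 in WT, 3.78 and 5.78 in CTCF-KD). Atic, which adds the last formyl group and closes the ring to IMP, had a mean of 65.3 TPM in shLuc #1, 59.2 TPM in shLuc #2, 159.6 TPM in shCTCF #1 and 206 TPM in the culture labelled shCTCF #2. The log2 difference was 1.53 (standard error 0.37), 2.42-fold in experiment 1 and 3.43-fold in experiment 2, and it was 1.35 without the culture labelled shCTCF #2. Atic had reads in 16 of 24, 15 of 23, 24 of 24 and 23 of 24 cells in the same order. Its WT cells were spread from 0 to 242 TPM, and the shCTCF #1 cells ran from 43.03 to 309 TPM.

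Paics, which carboxylates the imidazole ring and adds aspartate, had a mean of 285 TPM in shLuc #1, 399 TPM in shLuc #2, 271 TPM in shCTCF #1 and 447 TPM in the culture labelled shCTCF #2. The log2 difference was 0.05 (standard error 0.38), with -0.07 in experiment 1 and 0.17 in experiment 2. It was -0.31 without the culture labelled shCTCF #2 and -0.19 without shLuc #1, so that no direction held on this scale. When log2(TPM + 1) was averaged over cells the difference was 0.77, with 0.39 in experiment 1 and 1.14 in experiment 2. Reads of Paics were found in 23 of 24, 20 of 23, 24 of 24 and 23 of 24 cells. Although Ppat starts 276 bases from Paics, their differences were unlike. Taken from log2(mean TPM + 1), Ppat differed 4.33-fold and Paics 0.95-fold between the conditions of experiment 1.

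Adsl, the lyase that releases fumarate both on the way to IMP and in the branch to AMP, had a mean of 29.8 TPM in shLuc #1, 74.5 TPM in shLuc #2, 55.97 TPM in shCTCF #1 and 115 TPM in the culture labelled shCTCF #2. It was higher in CTCF-KD within both experiments (1.85-fold and 1.54-fold), with a log2 difference of 0.75 (standard error 0.61), but shLuc #2 was above shCTCF #1. The log2 difference was 0.11 without shLuc #1, 1.40 without shLuc #2, 1.27 without shCTCF #1 and 0.24 without the culture labelled shCTCF #2.

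Branch to GMP. The genes downstream of IMP showed no shared direction. Gmps, the GMP synthetase, had a mean of 92.2 TPM in shLuc #1, 216 TPM in shLuc #2, 116 TPM in shCTCF #1 and 308 TPM in the culture labelled shCTCF #2. Both cultures of experiment 2 were above both of experiment 1, so the difference between experiments was larger than that between conditions (1.25-fold in experiment 1 and 1.42-fold in experiment 2). The log2 difference of 0.42 (standard error 0.61) was -0.29 without the culture labelled shCTCF #2 and -0.19 without shLuc #1.

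Impdh2, the IMP dehydrogenase of proliferating cells, had a mean of 69.8 TPM in shLuc #1, 44.6 TPM in shLuc #2, 56.6 TPM in shCTCF #1 and 94.9 TPM in the culture labelled shCTCF #2. It was lower in CTCF-KD in experiment 1 (0.81-fold) and higher in experiment 2 (2.10-fold), for a log2 difference of 0.39 (standard error 0.48) that ran from 0.020 without the culture labelled shCTCF #2 to 0.75 without shCTCF #1. Its paralog Impdh1 had a mean of 23.9 TPM in shLuc #1, 51.8 TPM in shLuc #2, 29.9 TPM in shCTCF #1 and 26.5 TPM in the culture labelled shCTCF #2. It went the opposite way, 1.24-fold in experiment 1 and 0.52-fold in experiment 2, for a log2 difference of -0.32 (standard error 0.60) that ran from -0.86 without shLuc #1 to 0.23 without shLuc #2. When log2(TPM + 1) was averaged over cells the difference of Impdh1 was 0.39 and so changed sign. On that scale Impdh2 was higher in CTCF-KD in both experiments (0.27 and 1.39). A single cell held between 41.3% and 50.5% of the Impdh1 reads in every culture. Impdh2 was read in most cells (21 of 24, 21 of 23, 23 of 24 and 24 of 24) and Impdh1 in 7 of 24, 11 of 23, 13 of 24 and 13 of 24. Per length, Impdh2 made up 74.5%, 46.3%, 65.4% and 78.2% of the summed TPM of both in the same order of cultures.

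**Figure D2:**
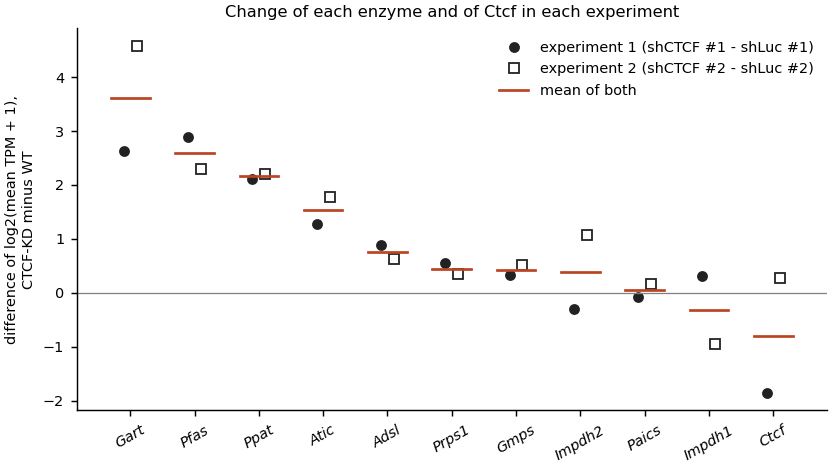
Points show the difference in log2(mean TPM + 1), CTCF-KD minus WT, for each gene in experiment 1 (filled circles) and experiment 2 (open squares), and lines their mean. Gart, Pfas, Ppat and Atic lay at 1.28 or more in both experiments, while Impdh2, Paics, Impdh1 and Ctcf had opposite signs in the 2 experiments.

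Over the 10 enzymes, 7 were higher in CTCF-KD in both experiments, where 30.1% of the 11980 genes were, and 0 were lower in both. In mean TPM the 4 genes Ppat, Gart, Pfas and Atic did not overlap between conditions, with the CTCF-KD cultures higher, as was so for 19.9% of all genes. The choice of the pathway used this contrast, so nothing is read from these counts. The median log2 difference of the 10 was 0.60 (0.72 in experiment 1 and 0.85 in experiment 2) beside 0.04 for all genes tested. It was 0.41 without shLuc #1, 1.21 without shLuc #2, 1.19 without shCTCF #1 and 0.15 without the culture labelled shCTCF #2, so its size depended on which cultures were included. Ordered by the smaller of the differences in the 2 experiments, Gart was at rank 47, Pfas at 83, Ppat at 125 and Atic at 467 of 11980 genes. Adsl was at rank 1396, Prps1 at 2186, Gmps at 2249, Paics at 4252, Impdh2 at 5516 and Impdh1 at 8498. The high ranks of Gart and Pfas follow from the choice of the pathway. With limma on the culture values, 0% of the 11980 genes passed an adjusted p of 0.05 (0 genes), while 574 genes higher in CTCF-KD (4.79%) and 338 lower had an unadjusted p under 0.05. When log2(TPM + 1) was averaged over cells instead, which weights cells without reads more, 44 genes higher in CTCF-KD (0.367%) and 2 lower passed. On that scale the log2 differences were 4.29 for Gart, 3.63 for Pfas, 3.46 for Ppat and 3.32 for Atic, and the median gene was at 0.23. With the experiment as a block on that scale, 650 genes were called higher and 37 lower. The 10 enzymes are not read from these calls, since they were chosen on this contrast.

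Summed over the 10 enzymes, the mean was 658 TPM in shLuc #1, 1018 TPM in shLuc #2, 985 TPM in shCTCF #1 and 1704 TPM in the culture labelled shCTCF #2. The sum was 1.497-fold higher in CTCF-KD in experiment 1 and 1.67-fold in experiment 2, and 1.91-fold and 2.03-fold without Paics. The cultures of the 2 conditions overlapped, since shLuc #2 was above shCTCF #1. Ppat, Gart, Pfas and Atic together made up 14.6% and 10.6% of the sum for WT, and 36.97% and 32.5% for CTCF-KD. The sum over the other 6 enzymes was 562 and 910.3 TPM for WT against 621 and 1150 TPM for CTCF-KD.

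In order of the mean over the 4 cultures, which TPM allows between genes, the levels were 350.4 TPM for Paics (SD 86.1 over 4 cultures), 183 TPM for Gmps (SD 99.2), 122 TPM for Atic (SD 72.01), 109 TPM for Prps1 (SD 41.6), 76.7 TPM for Pfas (SD 67.2), 68.8 TPM for Adsl (SD 35.8), 66.5 TPM for Impdh2 (SD 21.5), 49.6 TPM for Gart (SD 57.2), 33.02 TPM for Impdh1 (SD 12.8) and 31.7 TPM for Ppat (SD 25.6). The ranges of all neighbours in this order overlapped between cultures, but these ranges also hold the difference between conditions. Within each of the 4 cultures Paics was above Gmps (285 and 92.2 TPM in shLuc #1, 399 and 216 in shLuc #2, 271 and 116 in shCTCF #1, 447 and 308 in the culture labelled shCTCF #2). No other neighbours kept the same order in every culture. Paics was at rank 1 and Gmps at rank 2 in the mean of the WT cultures and in that of the CTCF-KD cultures. Gart was at rank 10 in WT and at rank 6 in CTCF-KD, and Pfas at rank 8 in WT and at rank 4 in CTCF-KD, while Impdh1 was at rank 7 in WT and at rank 10 in CTCF-KD.

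**Figure D3:**
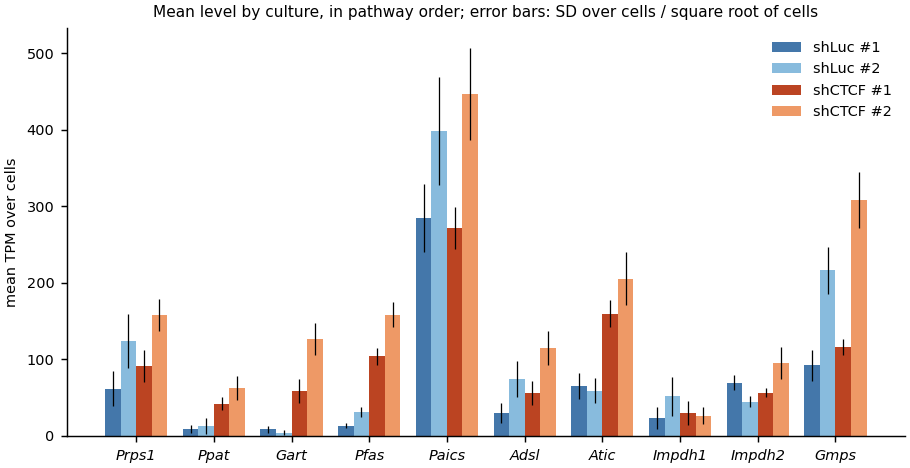
Bars give the mean TPM over the cells of each culture, genes in pathway order, and error bars the SD over cells divided by the square root of their number. Paics was the highest of the 10 within every culture (271 to 447 TPM), and the CTCF-KD bars of Ppat, Gart, Pfas and Atic stood above the WT bars.

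The number of enzymes with reads in a cell was counted next. The median was 6 of 10 enzymes in shLuc #1 (range 2 to 9), 7 in shLuc #2 (2 to 9), 9 in shCTCF #1 (6 to 10) and 9 in the culture labelled shCTCF #2 (7 to 10). No WT cell had reads of all 10 enzymes. At 80000 reads per cell, the medians were 5, 6, 8 and 9. Ppat, Gart, Pfas and Atic all had reads in 3 of 24 cells in shLuc #1, 0 of 23 in shLuc #2, 21 of 24 in shCTCF #1 and 21 of 24 in the culture labelled shCTCF #2. After thinning these were 0 of 24, 0 of 23, 15 of 24 and 19 of 23. Neither Ppat nor Gart had reads in 13 of 24 and 15 of 23 WT cells, and this held for 1 of 24 and 0 of 24 CTCF-KD cells. The other 6 enzymes differed less, with means per cell of 4 and 4.48 enzymes in WT and 5.17 and 5.29 in CTCF-KD. The number of enzymes with reads followed the number of genes with reads within every culture (Pearson's r of 0.63, 0.62, 0.56 and 0.64 over cells, in the same order, given as a description since cells share depth), and the genes with reads were also more in CTCF-KD cells.

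**Figure D4:**
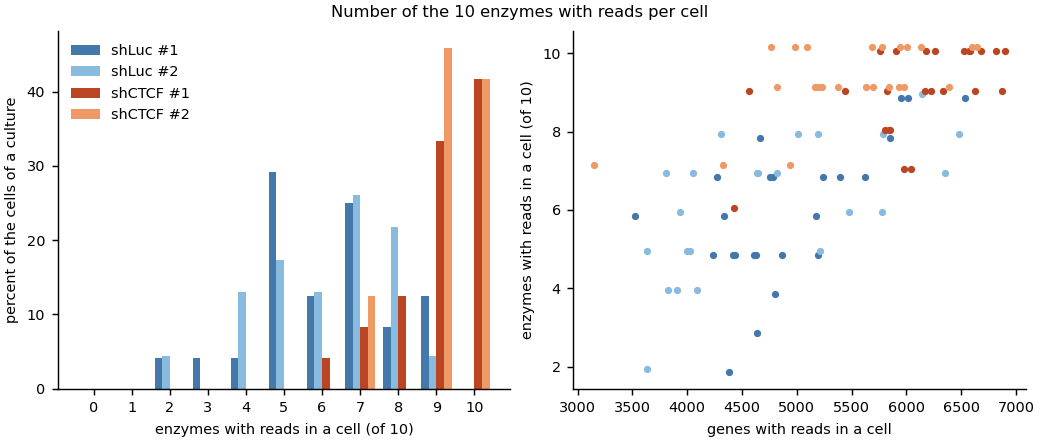
Left, the percent of the cells of each culture by the number of the 10 enzymes with reads. Right, the same number for each cell against its number of genes with reads, with cultures shifted slightly along the vertical axis. WT cells lay between 2 and 9 enzymes and CTCF-KD cells between 6 and 10, and in each culture cells with more genes tended to hold reads of more enzymes.

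Cell-to-cell variation was measured as the CV of log2(TPM + 1) with the cells of both cultures of a condition pooled. The CV was lower in CTCF-KD for all 10 enzymes, as for 81.5% of the 7843 genes with a mean above 1. It was 2.002 in WT and 0.50 in CTCF-KD for Ppat, 1.89 and 0.45 for Gart, 0.71 and 0.13 for Pfas, and 0.86 and 0.21 for Atic. A difference more than 1 SD below the mean difference of all genes was found for 2 of the 10, Ppat and Gart, and for 11.3% of the genes. For both genes the SD itself was not lower in CTCF-KD (2.05 in WT and 2.25 in CTCF-KD for Ppat, 1.94 and 2.40 for Gart), so their lower CV went with a higher mean. For the other 8 enzymes the SD was lower too, with 2.26 and 0.88 for Pfas and 2.45 and 1.03 for Gmps. Within each experiment the CV was also lower in CTCF-KD for all 10, for Gart with 1.61 and 0.60 in experiment 1 and 2.41 and 0.28 in experiment 2, and for Pfas with 0.68 and 0.11, and 0.73 and 0.14. Impdh1 had the highest CV of the 10 in CTCF-KD cells (1.10, against 1.45 in WT cells, where Ppat and Gart were above it).

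Within cultures the median pair of enzymes had a low correlation over cells. Over the 45 pairs, with each gene centred within cultures, Pearson's r of log2(TPM + 1) over 95 cells ran from -0.28 to 0.46 with a median of 0.12, and 35 pairs were above 0. The highest was between Pfas and Paics (0.46), which was -0.26 in shLuc #1 and 0.79, 0.51 and 0.70 in shLuc #2, shCTCF #1 and the culture labelled shCTCF #2. The lowest was between Paics and Impdh1, with negative r in each culture (-0.44, -0.21, -0.29 and -0.26). In the culture labelled shCTCF #2 alone, r ran from -0.49 (Paics and Impdh2) to 0.80 (Paics and Atic). Its cell with 3150 genes had no reads of Paics, Adsl or Atic and the lowest Pfas of that culture. The weight of that cell in these values was not tested. When the number of genes with reads was regressed out within cultures, the median was 0.053 and the pair of Pfas and Paics was at 0.38. These values are descriptions over cells that share depth and library. The genes whose level over cells was most like the summed TPM of the enzymes, among 5026 other genes with reads in at least 48 of the 95 cells, were Ccnb2 (r = 0.59), Lsm3 (0.56), Dut (0.56), Exosc8 (0.56) and Rrm1 (0.55), where the median gene had 0.069. Ccnb2 is a mitotic cyclin, Dut removes dUTP and Rrm1 is a subunit of ribonucleotide reductase. Ctcf itself had r = 0.37.

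Genes that feed or neighbour the pathway were counted by list, with limma calls from the fit over all genes. Of the 11980 genes tested, 30.1% were higher in CTCF-KD in both experiments, 19.9% did not overlap with CTCF-KD higher, 4.79% were higher with an unadjusted p under 0.05, and 0.367% were called higher on the mean of logs, and counts by list are to be set beside these shares. Of 24 genes of folate one-carbon metabolism and glycine supply, 19 were tested and 10 were higher in CTCF-KD in both experiments (3 lower in both), with a median log2 difference of 0.35 (0.45 in experiment 1 and 0.76 in experiment 2). None of the 19 passed on log2(mean TPM + 1), and 4 had an unadjusted p under 0.05, all higher. When log2(TPM + 1) was averaged over cells, 2 passed. Mthfd1, which makes the formyl folate that Gart and Atic use, was at 19.4 and 13.97 TPM in WT and at 127 and 91.2 TPM in CTCF-KD (log2 difference 2.64, standard error 0.50, adjusted p = 0.585, and 0.0468 on the mean of logs, both from limma). Shmt1, which takes a carbon from serine, was at 38.98 and 5.87 TPM in WT and at 149 and 154 TPM in CTCF-KD (3.20, standard error 0.83, adjusted p = 0.585, and 0.0468 on the mean of logs, limma). On log2(mean TPM + 1) the largest difference of the list was that of Fpgs, the folate polyglutamate synthase (2.83 and 0.18 TPM in WT, 55.3 and 26.02 TPM in CTCF-KD, 4.20, but 1.93 on the mean of logs, below Shmt1 at 3.93 and Mthfd1 at 3.63), and the smallest that of Gldc (-0.89), which was listed at 0 in both CTCF-KD cultures.

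De novo pyrimidine synthesis, the sister route, had 6 genes, all tested. Of these 5 were higher in both experiments, where 30.1% of all genes tested were. In 5 the conditions did not overlap, with CTCF-KD higher, as was so for 19.9% of all genes. The median log2 difference was 1.52 (1.32 in experiment 1 and 1.21 in experiment 2). Umps, which makes UMP, was at 26.7 and 41.5 TPM in WT and at 114 and 158 TPM in CTCF-KD (1.98, standard error 0.45, adjusted p = 0.585, and 0.0468 on the mean of logs, limma). Ctps, the CTP synthetase, had the largest difference on log2(mean TPM + 1) (2.35, with 1.05 in experiment 1 and 3.64 in experiment 2), but Umps was above it in experiment 1 (2.06) and on the mean of logs (3.84 against 2.83). Ctps2, the paralog of Ctps, had the smallest (-0.48, and 0.27 on the mean of logs). Among 6 tested genes of PRPP supply and the adenylate branch, 2 were higher and 2 lower in both experiments, with a median of 0.22 (-0.31 in experiment 1 and 0.35 in experiment 2). Prps2, a second PRPP synthetase, had the largest difference (1.09, with 4.34 and 25.6 TPM in WT and 16.7 and 35.5 TPM in CTCF-KD), which was 0.57 without the culture labelled shCTCF #2 and -0.068 without shLuc #1. Prpsap2, a protein associated with the synthetase, had the smallest (-0.83, and -1.04 without the culture labelled shCTCF #2). Of the 8 genes of deoxynucleotide synthesis, 6 were higher in both experiments and 1 lower in both, with a median of 0.38 (0.55 in experiment 1 and 0.29 in experiment 2). Dctd, the dCMP deaminase, was at 12.7 and 4.94 TPM in WT and at 45.1 and 47.2 TPM in CTCF-KD (2.38), and Rrm2b had the smallest difference (-0.81, with alternatives from -1.49 to 0.036). Without the culture labelled shCTCF #2 the log2 difference was 2.87 for Mthfd1, 3.17 for Shmt1, 4.73 for Fpgs, 1.75 for Umps and 2.35 for Dctd. None of these lists was compared with other genes by a test.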

How the data were processed

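Reads of 96 single cells were aligned by the authors to GRCm38 with STAR, uniquely mapped reads were counted on 24057 genes with HTSeq, and the counts were deposited as TPM, a unit per gene length and per cell total. Whole reads were recovered as the common step of each gene over cells (100% of 9602 genes read in 10 or more cells, within 0.001 of a whole number) and used for depth, RPM and thinning only. No molecular identifiers are described, so intervals cover counting error only. Cells under 3000 genes were left out. Expression of a culture was log2(mean TPM + 1) over its cells. Genes passing log2(TPM + 1) of 1 in 2 or more cells were tested with limma 3.58.1 (R 4.3.3, trend, Benjamini-Hochberg adjustment at 0.05, 2 cultures against 2), tested on simulated data. Exact permutation of 2 against 2 cultures has a smallest p of 0.333 and was not used. The culture number pairs the samples, as it is the experiment. Deviations of same-numbered cultures had a correlation of 0.175 across 11980 genes. Named are the 10 enzymes, Ctcf, from each list the genes with the largest and smallest difference (and, chosen after their values were seen, those called only on the mean of logs), and the 5 genes most like the summed enzymes over cells. The members and lists were chosen with earlier results of these data known. Positions are from GENCODE M21.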

Additional observations from a re-analysis of the deposited data

Results flagged for a closer look

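On log2(mean TPM + 1), Impdh2, Impdh1, Paics and also Ctcf had opposite signs in the 2 experiments, with every culture of an experiment counted as labelled. None of these differences was tested, as each experiment had 1 culture per condition. The log2 difference between CTCF-KD and WT in experiment 2 minus that in experiment 1 was 1.37 for Impdh2, -1.25 for Impdh1, 0.23 for Paics and 2.12 for Ctcf. Paics was near 0 in both experiments on this scale, and Impdh1 had a single cell with 41.3% or more of its reads in every culture. With log2(TPM + 1) averaged over cells, Paics (0.39 and 1.14) and Impdh2 (0.27 and 1.39) were higher in CTCF-KD in both experiments. Impdh1 (0.81 and -0.02) and Ctcf (-1.83 and 0.58) still had opposite signs.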

How the results depend on the processing

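Calls over all genes depended on the scale. On log2(mean TPM + 1), 0 genes passed with every pseudocount, filter and scaling tried and with each culture left out. With log2(TPM + 1) averaged over cells, 44 genes were called higher and 2 lower, and with the replicate block added after seeing the data 650 and 37, while 0 passed on that scale with any culture left out. The replicate block on log2(mean TPM + 1) also called 0 and changed no other call. In this balanced design the block cannot change a log2 difference, so the median of the 10 enzymes stayed at 0.60. That median was 2.03 on the mean of logs (with or without the block), 0.81 without the highest cell of each gene, 0.75 in RPM, and 0.15 to 1.21 with a culture left out. The mean of logs also moved the median of all genes from 0.04 to 0.23. The count of 7 enzymes higher in both experiments was 9 on the mean of logs, where Paics and Impdh2 were added. It stayed at 7 under the other alternatives that gave a count. On the mean of logs Prps1, Paics, Adsl and Impdh2 also did not overlap between conditions, while Gmps and Impdh1 did. The share of all genes without overlap on that scale was not taken. The log2 differences there were 2.34 for Prps1, 1.72 for Adsl, 1.17 for Gmps and 0.83 for Impdh2. The summed enzymes were 1.83-fold and 1.98-fold higher in RPM in experiments 1 and 2. The median correlation of pairs was 0.053 with genes detected removed. Of 165 values of the 10 enzymes and Ctcf under alternatives, 157 kept their sign, and the 8 others were of Impdh1, Gmps, Paics and Prps1. The filters on genes and the replicate block cannot change these differences, so part of the 157 was fixed in advance. Of the 165 values, 43 moved by more than the SD between experiments. Depth was lowest in the culture labelled shCTCF #2, and 2 cultures per condition limit every comparison. The cause of these shifts was not tested.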

Other observations

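Purine salvage and breakdown, the other source of purine nucleotides, had 27 genes in the table and 20 tested. Of these 9 were higher and 3 lower in CTCF-KD in both experiments, with a median log2 difference of 0.50 (0.58 in experiment 1 and 0.13 in experiment 2, whose CTCF-KD culture had Ctcf above its control). Over all 11980 genes, 30.1% were higher in both experiments, and the counts of this and the next lists are to be set beside that share. Nt5c, a deoxynucleotidase, was at 161 and 240.5 TPM in the WT cultures and at 439.7 and 419.7 TPM in the CTCF-KD cultures (log2 difference 1.12, adjusted p = 0.585, and 0.0468 on the mean of logs, limma). Adal had the largest difference on log2(mean TPM + 1) (1.94, but 0.73 on the mean of logs, where Nt5c was at 3.43) from levels of 6.28 TPM or less, and Ampd3 the smallest (-0.72, with -1.54 in experiment 1 and 0.093 in experiment 2).

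Among 21 tested nucleotide kinases, 12 were higher and 2 lower in both experiments, with a median of 0.43 (0.63 in experiment 1 and 0.28 in experiment 2). Nme6 was at 2.40 and 16.97 TPM in WT and at 158 and 74.5 TPM in CTCF-KD (3.81), and Ak1, an adenylate kinase, had the smallest difference (-1.34). The pentose phosphate pathway, which supplies the ribose, had 5 of 9 tested genes higher and 1 lower in both experiments, with a median of 0.38 (0.59 in experiment 1 and 0.087 in experiment 2). H6pd had the largest difference (3.01, and 0.92 on the mean of logs) from 0.26 and 1.25 TPM in WT, and the transketolase Tkt the smallest (-0.37), which was 0.39 on the mean of logs. Of 13 tested genes of glutamine and aspartate supply, 3 were higher and 3 lower in both experiments, with a median of -0.0019 (-0.080 in experiment 1 and 0.077 in experiment 2). Slc38a2, a glutamine transporter, was at 433 and 539 TPM in WT and at 219.6 and 381 TPM in CTCF-KD (-0.74). Glul had the largest difference (1.35, but 0.55 on the mean of logs) from levels of 4.45 TPM or less.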
